A study of Caenorhabditis elegans with 12 samples.

Results

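Lysozymes are enzymes that cut the peptidoglycan of bacterial cell walls. Caenorhabditis elegans feeds on bacteria and carries 2 kinds of lysozyme gene, the lys genes, whose products resemble lysozymes of protists, and the ilys genes, which encode the invertebrate type found in other animals without backbones. Several of them are made in the intestine, where they take part in digestion and in defence against ingested bacteria, and the insulin/DAF-16, p38 MAP kinase and DBL-1 pathways are known to regulate some of them. The genes described here are those whose symbol in the deposited table is lys- or ilys- followed by a number, which gave 15 of the 45327 genes listed, 10 lys genes and 5 ilys genes. The family was selected on the normalized counts of these same libraries, because lys-8 separated the 2 strains, so the contrast of the untreated strains is given below as a description with no test.

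The libraries were made from whole worms at the L4 larval stage, grown at 25°C. There were 3 of wrn-1(gk99) worms grown on plates with 10 mM vitamin C, given as ascorbate, 3 of wrn-1(gk99) worms without it, 3 of wild type N2 worms with 10 mM vitamin C and 3 of N2 worms without it. The gk99 allele is a deletion in wrn-1, the worm gene for the helicase related to the protein missing in Werner syndrome; it blocks expression of the protein, and the mutant was outcrossed to N2. Worms were matched by developmental stage, not by hours of growth, and vitamin C was given from the L1 larval stage. Each value is a read count of one gene divided by the size factor of its library, called a normalized count below.

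Between 13446257 and 34234211 reads were counted on genes per library (median 20136361). The wrn-1 transcript itself was at 648 to 835 normalized counts in vitamin C treated wrn-1(gk99), 700 to 854 in untreated wrn-1(gk99), 407, 380 and 614 in replicates 1, 2 and 3 of treated N2 and 499 to 516 in untreated N2. Counts over the whole gene do not read the deleted part and so do not check the genotype. The summed count of 7 intestine markers was 48596 to 53329 in treated wrn-1(gk99), 74731 to 78077 in untreated wrn-1(gk99), 35092 and 35793 in replicates 1 and 2 of treated N2, 48339 in the third, and 38791 to 39718 in untreated N2. Of the 4 yolk genes, which mark the adult intestine, the sum stayed between 4.97 and 17.2 in the 12 libraries. The body wall muscle factor hlh-1 was listed at 0, but the other 4 of the 5 body wall muscle markers were well detected. The sum of the 5 lay between 134446 and 227675 in the 12 libraries.

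The library labelled N2 vitC replicate 3 stood apart from its group. Over all genes its log-scale correlation was 0.994 to 0.996 with the treated wrn-1(gk99) libraries but 0.960 to 0.961 with the other treated N2 libraries, while other libraries of the same group correlated at 0.992 to 0.997. In 9 of the 10 lysozyme genes that entered the tests it was closest to the mean of treated wrn-1(gk99), and in 8 it fell within the range of those 3 libraries. The exception in both counts, ilys-2, was closest to untreated N2, and ilys-5 at 401 normalized counts lay above the 368 to 379 of treated wrn-1(gk99). Its lys-8 count of 129 compares with 111 to 129 in treated wrn-1(gk99) and with 2440 and 2517 in the other treated N2 libraries. The comparisons below were therefore also run without it.

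**Figure D1:**
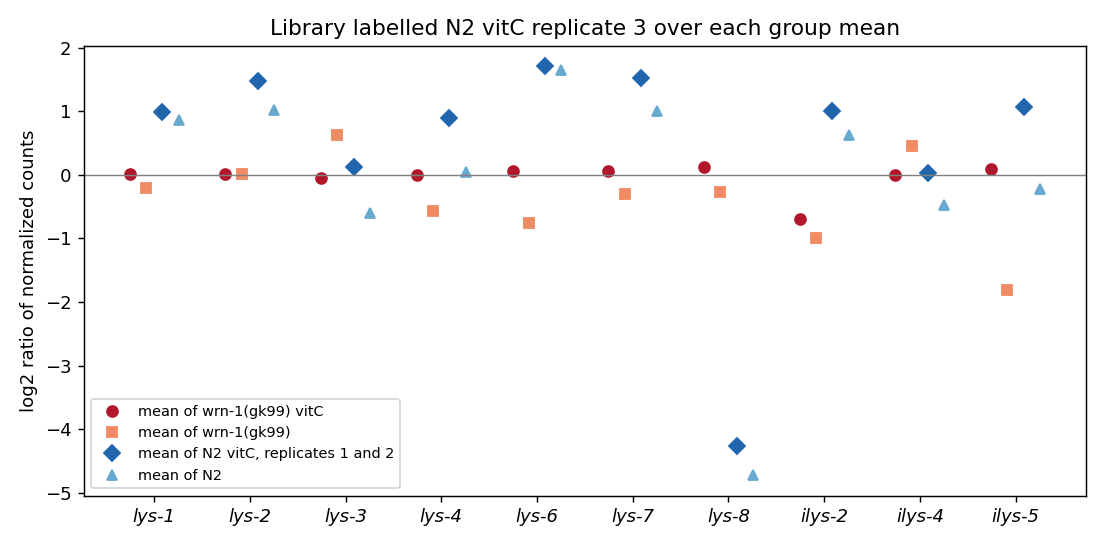
The log2 ratio of the library labelled N2 vitC replicate 3 over the mean of each group is plotted for the 10 tested lysozyme genes, with replicates 1 and 2 alone standing for treated N2. The circles for treated wrn-1(gk99) lie within 0.13 of 0 except for ilys-2 at -0.69, whereas lys-8 lies at -4.27 against the other treated N2 libraries.

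All 15 genes were found in the WBcel235 annotation, and many lie side by side. On chromosome V, lys-1, lys-2 and lys-3 are neighbours and lys-7 lies elsewhere. Chromosome IV holds lys-4, lys-5 and lys-6 in a row, ilys-3, ilys-2 and ilys-1 in another row, and ilys-4 and lys-10 apart. The last of these sits between the histone genes his-30 and his-31. Single genes lie on chromosome II (lys-8), chromosome I (lys-9) and chromosome X (ilys-5). The annotation places the protein-coding gene C17G10.13 over part of lys-8 and atic-1 over part of ilys-4, each on the opposite strand. Whether reads were counted by strand is not given in the sources used here, so reads of these pairs may not have been told apart. The deposited table has no row named C17G10.13, and atic-1 lay between 1210 and 1896 normalized counts.

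Of the 15 genes, 10 had a mean of at least 10 normalized counts over the 12 libraries and entered the tests. These were lys-1, lys-2, lys-3, lys-4, lys-6, lys-7, lys-8, ilys-2, ilys-4 and ilys-5. A further 3 were detected below that level, lys-10 (mean 9.77), ilys-3 (6.13) and lys-5 (4.98), and lys-9 and ilys-1 had 0 reads in every library, where a count of 0 allows up to 3 reads. Together the lysozyme genes took 0.158% to 0.186% of all counts in treated wrn-1(gk99), 0.195% to 0.202% in untreated wrn-1(gk99), 0.0837% and 0.0850% in 2 of the treated N2 libraries with 0.176% in the library labelled replicate 3, and 0.105% to 0.109% in untreated N2.

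The level per length of transcript separated a few abundant genes from the rest. Per kilobase of exon, lys-1 was the most abundant lysozyme transcript in all 4 groups, at 16731 normalized counts per kilobase in untreated wrn-1(gk99) and 7979 in untreated N2, and lys-2 came next, at 10143 in untreated wrn-1(gk99) and 5048 in untreated N2. The place of lys-8 depended on the strain, since it ranked 8 in untreated wrn-1(gk99) with 160 normalized counts per kilobase and 3 in untreated N2 with 3510. At the low end lys-6 and ilys-2 stood at 71.2 and 114 per kilobase in untreated wrn-1(gk99), against 13.3 and 37.1 in untreated N2.

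**Figure D2:**
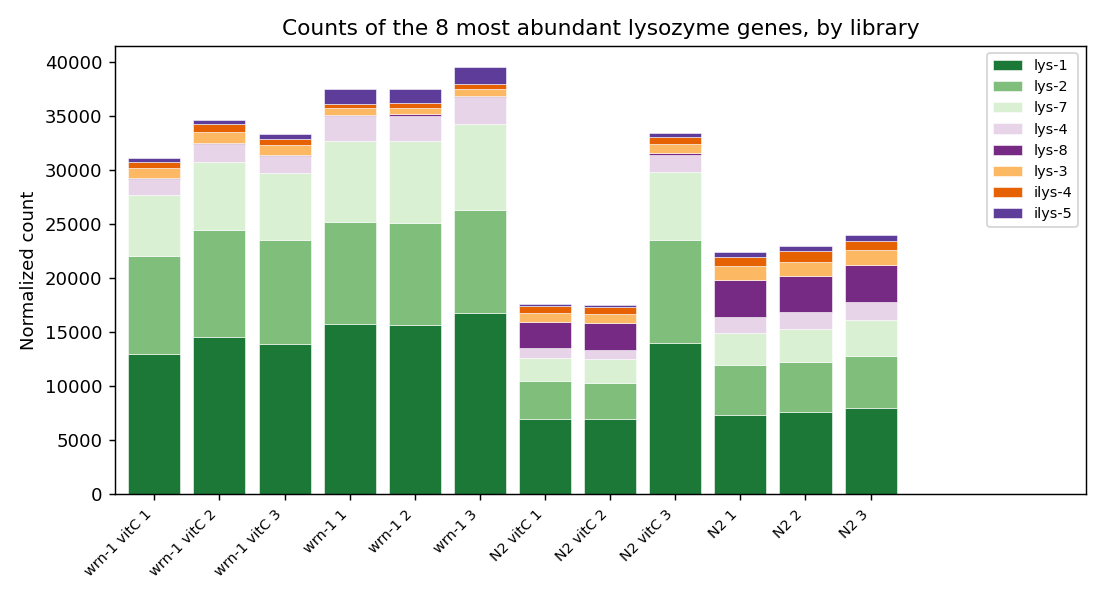
Stacked bars give the normalized counts of the 8 most abundant lysozyme genes in each library, by group and replicate, without correction for length. The lys-8 segment is 0.340% to 0.433% of the lysozyme counts in the 6 wrn-1(gk99) libraries, 0.383% in the library labelled N2 vitC replicate 3 and 13.8% to 15.1% in the other 5 N2 libraries.

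Without vitamin C, the strains differed in opposite directions within the family. The genes lys-8, lys-3 and ilys-4 were lower in wrn-1(gk99), whereas lys-1, lys-2, lys-4, lys-6, lys-7, ilys-2 and ilys-5 were higher there. All 10 tested genes had groups that did not overlap, 7 with every wrn-1(gk99) library higher, as in 38.2% of all genes tested, and 3 with every one lower, as in 37.6%. The numbers below describe the contrast that selected the family. In RNA of whole worms, fewer cells of a type and less RNA per cell cannot be told apart.

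The gene lys-8, one of those known as DAF-16 and DBL-1 targets, had 152, 163 and 151 normalized counts in wrn-1(gk99), against 3381, 3339 and 3494 in N2. Its mean was thus 21.9-fold lower in the mutant, and no wrn-1(gk99) library came near any N2 library. The next gene lower in the mutant was lys-3, with 574, 559 and 562 normalized counts in wrn-1(gk99), against 1308, 1343 and 1318 in N2, a ratio of 0.427. For ilys-4 the counts were 440, 474 and 506 in wrn-1(gk99), against 858, 972 and 883 in N2, a ratio of 0.523.

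Primers for RT-PCR of lys-8 (C17G10.5, chromosome II) were designed for the same strains. They are shown because lys-8 had the lowest ratio between the untreated strains, and they are written 5′ to 3′. Their place in the transcript was not located here.
lys-8 forward: ctggcagtactttgccattcgg
lys-8 reverse: gctgggttgtatgcacggaca

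Among the genes higher in the mutant, lys-7, which contributes to resistance against some pathogens, had 7541, 7556 and 8011 normalized counts in wrn-1(gk99), against 2957, 3069 and 3285 in N2, a ratio of 2.48. The neighbours lys-1 and lys-2 had log2 ratios of 1.07 and 1.01, whereas lys-3 beside them went the other way. For lys-1 the counts were 15710, 15694 and 16730 in wrn-1(gk99), against 7383, 7585 and 7986 in N2. The gene ilys-5 had 1345, 1338 and 1545 in wrn-1(gk99), against 418, 483 and 501 in N2, a ratio of 3.02.

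In the row on chromosome IV, lys-4 had 2277, 2340 and 2463 normalized counts in wrn-1(gk99), against 1499, 1501 and 1630 in N2, a ratio of 1.53. The largest ratio, 5.36, was that of lys-6, which rests on few reads, with 57.6, 41.3 and 52.7 normalized counts in wrn-1(gk99), against 10.7, 7.96 and 9.59 in N2. For ilys-2 the ratio was 3.06, with 64.3, 47.8 and 55.7 in wrn-1(gk99), against 22.8, 10.6 and 21.3 in N2. With the thresholds of the later comparisons (an adjusted p under 0.01, means that differ 2-fold or more, and a minimum level in a group compared), 5 of the 10 genes would be called, lys-1, lys-3, lys-7, lys-8 and ilys-5, beside 10.8% of all genes tested. Nothing is read from that count, because the same contrast selected the family.

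**Figure D3:**
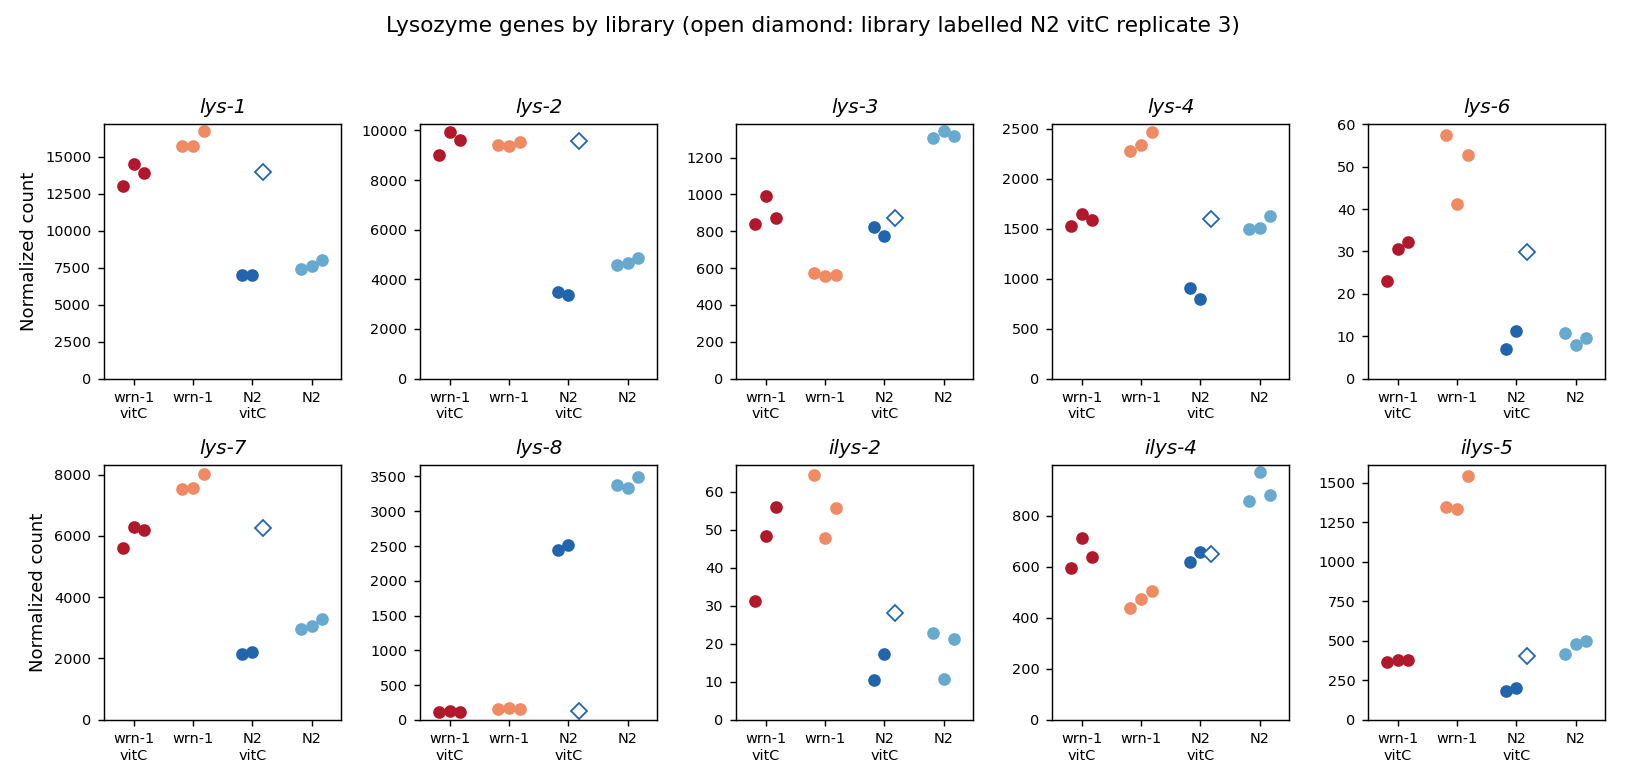
Normalized counts of the 10 tested lysozyme genes are plotted for each library on linear axes that start at 0, with the groups in the order treated wrn-1(gk99), untreated wrn-1(gk99), treated N2 and untreated N2, and an open diamond for the library labelled N2 vitC replicate 3. The lys-8 panel shows all 6 wrn-1(gk99) libraries at or below 163 and untreated N2 at 3339 or above, and the ilys-5 panel shows untreated wrn-1(gk99) at 1338 or above with every other library at or below 501.

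The response of the mutant to vitamin C was asked by comparing treated with untreated wrn-1(gk99). With vitamin C, ilys-5 fell, lys-3 and ilys-4 rose, and the other tested lysozymes were lower or level without passing the test. The gene ilys-5 had 368, 379 and 379 normalized counts in treated wrn-1(gk99), against 1345, 1338 and 1545 in untreated wrn-1(gk99), a log2 fold change of -1.90 (SE 0.23, limma with Benjamini-Hochberg adjusted p = 0.000135). Treated mutants thus had a mean 0.267 times that of untreated ones, below all 3 untreated N2 libraries. The ilys-5 gene was the only one of the 10 to meet all call thresholds, which 1.80% of all genes tested met.

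The gene lys-3 had 838, 989 and 870 normalized counts in treated wrn-1(gk99), against 574, 559 and 562 in untreated wrn-1(gk99), a log2 fold change of 0.67 (SE 0.08, limma adjusted p = 9.98e-05). For ilys-4 they were 596, 713 and 638 in treated wrn-1(gk99), against 440, 474 and 506 in untreated wrn-1(gk99), a log2 fold change of 0.45 (SE 0.09, limma adjusted p = 0.00374). Both genes thus rose in the mutant with vitamin C, by less than 2-fold. At an adjusted p under 0.01 with no minimum fold, 3 of 10 lysozymes changed, beside 10.3% of all genes tested. The median log2 fold change was -0.34 over the 10 lysozymes and -0.01 over all genes tested.

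Groups did not overlap for 8 of the 10 genes. In 2 of these every treated library was higher, as in 24.2% of all genes tested, and in 6 every treated library was lower, as in 26.5%. The 6 included lys-1, with 13016, 14539 and 13892 normalized counts in treated wrn-1(gk99), against 15710, 15694 and 16730 in untreated wrn-1(gk99). They also included lys-7, with 5614, 6279 and 6198 in treated wrn-1(gk99), against 7541, 7556 and 8011 in untreated wrn-1(gk99), and lys-4, with 1524, 1649 and 1583 in treated wrn-1(gk99), against 2277, 2340 and 2463 in untreated wrn-1(gk99). The strongest strain marker of the family, lys-8, had 111, 129 and 114 in treated wrn-1(gk99), against 152, 163 and 151 in untreated wrn-1(gk99).

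These 4 genes did not pass in the fit of all 12 libraries, where limma gave adjusted p = 0.530 for lys-1, 0.480 for lys-7, 0.0546 for lys-4 and 0.805 for lys-8. The fit shares its estimate of spread among the 4 groups, so the library labelled N2 vitC replicate 3 widens it. Without that library, 7 of 10 lysozymes changed at an adjusted p under 0.01, beside 28.5% of all genes tested. The log2 fold changes were then the same, with limma adjusted p = 0.00445 for lys-1 (-0.22), 0.000100 for lys-7 (-0.35), 1.44e-06 for lys-4 (-0.57) and 0.000152 for lys-8 (-0.40). The abundant lys-2 had 9026, 9931 and 9604 in treated wrn-1(gk99), against 9429, 9385 and 9514 in untreated wrn-1(gk99), with overlapping groups and a log2 fold change of 0.01 (SE 0.30 with all libraries and 0.05 without that one).

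The low genes lys-6 and ilys-2 did not pass in either fit. For lys-6 the counts were 23.1, 30.5 and 32.2 in treated wrn-1(gk99), against 57.6, 41.3 and 52.7 in untreated wrn-1(gk99), a log2 fold change of -0.80 (SE 0.40, limma adjusted p = 0.195, or 0.0191 without the library labelled N2 vitC replicate 3). For ilys-2 they were 31.3, 48.5 and 56.0 in treated wrn-1(gk99), against 64.3, 47.8 and 55.7 in untreated wrn-1(gk99), which overlap.

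**Figure D4:**
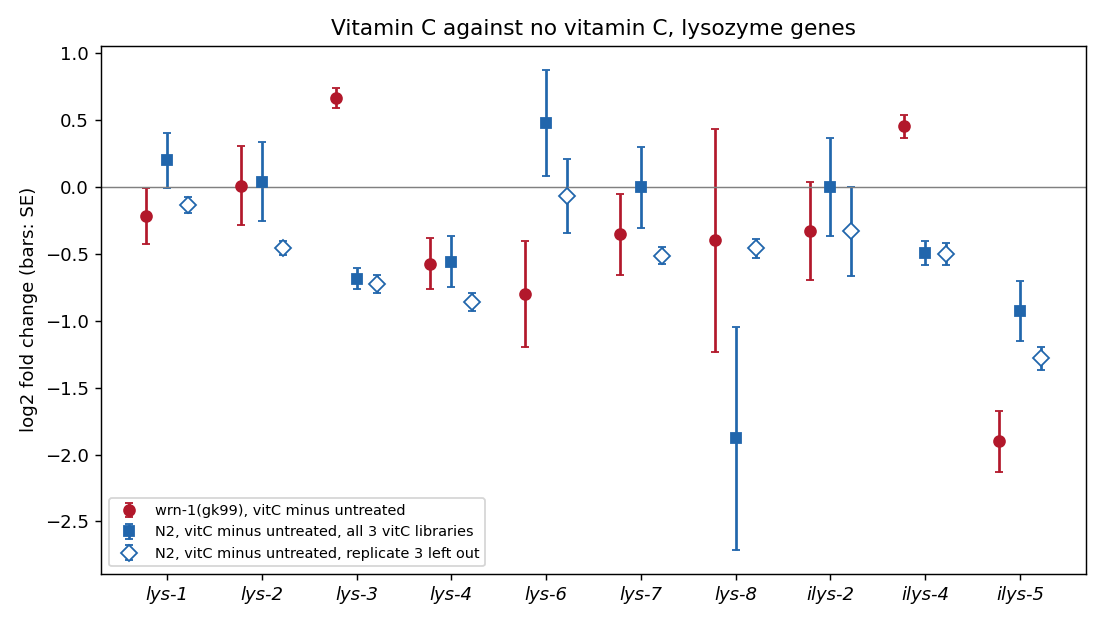
Points give the log2 fold change of vitamin C treated over untreated worms for each tested lysozyme gene and bars its standard error, in wrn-1(gk99) and in N2 with all libraries, and in N2 with the library labelled N2 vitC replicate 3 left out. The genes lys-3 and ilys-4 lie above 0 in wrn-1(gk99), at 0.67 and 0.45, and below 0 in N2, at -0.68 and -0.49, while ilys-5 lies below 0 in both strains.

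The same question in wild type worms was asked by comparing treated with untreated N2. There lys-3 and ilys-4 fell, the opposite of their direction in wrn-1(gk99). The gene lys-3 had 826, 773 and 873 normalized counts in treated N2, against 1308, 1343 and 1318 in untreated N2, a log2 fold change of -0.68 (SE 0.08, limma adjusted p = 8.23e-05). For ilys-4 they were 617, 659 and 651 in treated N2, against 858, 972 and 883 in untreated N2, a log2 fold change of -0.49 (SE 0.09, limma adjusted p = 0.00200). These 2 of 10 genes changed at an adjusted p under 0.01, beside 12.7% of all genes tested. None of the 10 met all call thresholds with limma, beside 2.49% of all genes tested. None did with edgeR or DESeq2, beside 390 and 422 of all genes tested. An unadjusted p under 0.05 with limma was found for 5 of the 10, beside 34.8% of all genes tested.

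Without the library labelled N2 vitC replicate 3, 7 of 10 lysozymes fell in treated N2 at an adjusted p under 0.01, beside 21.0% of all genes tested, and 0 rose, beside 15.5% (36.4% in either direction). They were lys-2, lys-3, lys-4, lys-7, lys-8, ilys-4 and ilys-5, and the median log2 fold change over the 10 was -0.48, beside -0.05 over all genes tested. The gene ilys-5 met all call thresholds, as 4.59% of all genes tested did. It had 185 and 198 normalized counts in treated N2, against 418, 483 and 501 in untreated N2, a log2 fold change of -1.28 (SE 0.09, limma adjusted p = 1.21e-08). With the third library, at 401, it was -0.92 (SE 0.23, limma adjusted p = 0.0115).

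Among the other genes whose result depended on that library were lys-4, lys-2 and lys-7. For lys-4 the remaining treated N2 libraries had 904 and 799 normalized counts, against 1499, 1501 and 1630 in untreated N2, a log2 fold change of -0.86 (limma adjusted p = 4.88e-08). For lys-2 they had 3500 and 3349, against 4582, 4673 and 4844 in untreated N2, a log2 fold change of -0.46 (limma adjusted p = 4.80e-06). For lys-7 they had 2141 and 2206, against 2957, 3069 and 3285 in untreated N2, a log2 fold change of -0.51 (limma adjusted p = 6.77e-06). All 3 were lower with vitamin C in these pairs of libraries, without overlap. With all libraries the log2 fold changes of lys-2 and lys-7 were 0.04 and -0.0031, and neither passed.

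The drop of lys-8 in treated N2 was small when that library was left out. The 2 remaining treated N2 libraries had 2440 and 2517 normalized counts, against 3381, 3339 and 3494 in untreated N2, a log2 fold change of -0.46 (SE 0.07, limma adjusted p = 9.38e-05). With the third library, at 129, it was -1.88 (SE 0.83, limma adjusted p = 0.132). The genes lys-1 (log2 fold change -0.13, limma adjusted p = 0.0816), lys-6 (-0.07, 0.865) and ilys-2 (-0.33, 0.436) did not pass without that library, nor with it.

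Whether the strains responded differently was tested as the interaction of strain and vitamin C, the log2 response of wrn-1(gk99) minus that of N2. The same value is the strain difference with vitamin C minus that without it. It thus contains the untreated contrast that selected the family, and its p-values are not independent of that contrast. For lys-3 the interaction was 1.35 (SE 0.11, limma adjusted p = 4.98e-06) and for ilys-4 the interaction was 0.94 (SE 0.12, limma adjusted p = 0.000196). The log2 strain difference was 0.12 with vitamin C and -1.23 without it for lys-3, and 0.01 and -0.93 for ilys-4. The interaction of these 2 of 10 passed at an adjusted p under 0.01, beside 14.9% of all genes tested, and lys-3 alone met the thresholds for a call, which 6.14% met. In treated worms the 2 strains lay closer together in both genes than in untreated worms, with 838 to 989 for lys-3 in treated wrn-1(gk99) and 773 to 873 in treated N2, and 596 to 713 for ilys-4 in treated wrn-1(gk99) and 617 to 659 in treated N2. The 873 is the library labelled N2 vitC replicate 3. Against the other treated N2 libraries, at 826 and 773, every treated wrn-1(gk99) library was higher in lys-3, with a ratio of means of 1.12.

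With the library labelled N2 vitC replicate 3 left out, the interaction was 1.39 for lys-3 (limma adjusted p = 1.15e-08) and 0.95 for ilys-4 (limma adjusted p = 7.13e-06). It then passed also for lys-2, at 0.47 (limma adjusted p = 7.41e-05), and for ilys-5, at -0.62 (limma adjusted p = 0.000421), where it had been -0.98 with all libraries and had not passed (adjusted p = 0.0415). That made 4 of 10, beside 34.1% of all genes tested, with lys-3 alone called, beside 7.84%. The test of a larger fall of ilys-5 in wrn-1(gk99) than in N2 thus passed only with 2 treated N2 libraries. For lys-8 the difference in response was 0.06 (SE 0.10, limma adjusted p = 0.643) without that library and 1.48 (SE 1.18, adjusted p = 0.394) with it.

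The strains were also compared with both under vitamin C. With all libraries none of the 10 lysozymes, and 0.00% of all genes tested, passed either set of thresholds with limma. An unadjusted p under 0.05 was found for 8 of the 10, beside 41.9% of all genes tested. The same comparison gave 0 called lysozymes with edgeR, beside 0 of all genes tested, and 1, lys-8, with DESeq2, beside 156 of all genes tested. Without the library labelled N2 vitC replicate 3, 8 of 10 lysozymes had an adjusted p under 0.01, beside 52.1% of all genes tested, and 3 were called, lys-2, lys-7 and lys-8, beside 6.81%. Nothing is read from lys-8 here, since it was chosen for its strain difference.

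For lys-8, treated wrn-1(gk99) had a mean of 118 normalized counts, against 2479 in those 2 treated N2 libraries, 21.0-fold lower in the mutant. The genes higher in treated wrn-1(gk99) were lys-2 (log2 fold change 1.47, limma adjusted p = 1.12e-11), lys-7 (1.47, 6.24e-11), lys-1 (0.98, 3.14e-09), lys-4 (0.90, 2.15e-08), lys-6 (1.57, 0.000192), ilys-2 (1.62, 0.000617) and ilys-5 (0.97, 1.78e-07). The genes lys-3 (0.17, limma adjusted p = 0.0440) and ilys-4 (0.02, 0.843) did not pass.

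Treated wrn-1(gk99) was last set against untreated N2, to see how far the treated mutant lay from untreated wild type. This comparison shares libraries with the ones above, among them the untreated N2 libraries on which lys-8 was chosen, so nothing is read from lys-8 here or from its part in the counts. With all libraries 4 of 10 lysozymes had an adjusted p under 0.01, beside 22.1% of all genes tested, and lys-8 alone was called, beside 3.70%. Besides lys-8, at a mean of 118 normalized counts in treated wrn-1(gk99) and 3405 in untreated N2, these were lys-1 (log2 fold change 0.85, limma adjusted p = 0.00748), lys-3 (-0.56, 0.000219) and ilys-4 (-0.48, 0.00163). Without the library labelled N2 vitC replicate 3, 9 of 10 passed, beside 50.4% of all genes tested. The exception was lys-4, at 1524, 1649 and 1583 in treated wrn-1(gk99) and 1499, 1501 and 1630 in untreated N2, with a log2 fold change of 0.04 (SE 0.19, limma adjusted p = 0.879, or SE 0.06 and 0.579 without that library).

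The 3 genes below the test level were too low to compare. The gene lys-5 had 2.23, 5.54 and 2.54 normalized counts in treated wrn-1(gk99), 15.2, 12.1 and 5.96 in untreated wrn-1(gk99), 1.18, 2.48 and 3.40 in treated N2 and 2.69, 5.30 and 1.07 in untreated N2, from 1 to 27 reads per library. The gene ilys-3, known to break down bacteria in the gut, ranged over 1.18 to 12.4, and lys-10 over 4.97 to 13.4.

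Across the 12 libraries on the log2 scale, the members fell into groups that moved alike. The correlation was 0.987 between lys-1 and lys-7, 0.973 between lys-1 and lys-2, 0.975 between lys-3 and ilys-4 and 0.933 between lys-4 and ilys-5, and it was -0.958 between lys-1 and lys-8. These points share their strain and treatment groups, so the values describe the group pattern and carry no test. Among the 9855 genes compared, the genes most like lys-8 over the 12 libraries were cebp-1 (r = 0.993), a bZIP transcription factor, haf-6 (0.992), an ABC transporter, cab-1 (0.990), pghm-1 (0.990), an enzyme of neuropeptide amidation, and mec-7 (0.990), a tubulin of touch neurons. The correlation takes no account of the size of a change. Means in untreated wrn-1(gk99) and untreated N2 were 155 and 3405 for lys-8. They were 811 and 1588 for cebp-1, 158 and 515 for haf-6, and 4516 and 6492 for cab-1. For pghm-1 they were 1579 and 2016, and for mec-7 1278 and 3045. The genes most like ilys-5 were R12E2.7, F09F7.4 and F23B12.4, each at 0.991, and those most like lys-3 were R07C12.1 and C25E10.8, both at 0.992, and R12C12.5 at 0.991.

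Genes of other antibacterial families and of the pathways that regulate lysozymes were counted in the same comparisons. In untreated worms, 19 caenopore genes (spp, which encode pore-forming saposin-like proteins) were tested. Of these 1 was called higher in wrn-1(gk99), beside 4.24% of all genes tested, and 2 lower, beside 6.57%. Those lower were spp-20 (log2 fold change -1.47, limma adjusted p = 4.85e-08) and spp-15 (-1.08, 4.82e-05), and the one higher was spp-23 (1.29, 6.54e-05). Of 4 abf genes, which encode defensin-like peptides, abf-5 (1.76, limma adjusted p = 0.000464) and abf-6 (1.16, 0.000141) were called higher. The thaumatin-like gene thn-2 was called lower (-2.50, 1.07e-05), and of the insulin/DAF-16 pathway pdk-1, a kinase acting before AKT, was called lower (-1.09, 0.000369), 1 of 7. Without the library labelled N2 vitC replicate 3 these genes and no others of these families and pathways were called, beside 4.34% of all genes tested called higher and 6.67% lower. At an adjusted p under 0.01 with no minimum fold, 43.4% of all genes tested passed with all libraries. Among them 2 of 6 p38 MAP kinase genes, 2 of 9 DBL-1 pathway genes and 1 of 5 intestinal transcription factors were lower and none higher. Of the 7 insulin/DAF-16 genes 4 were lower and 1 higher, and of the 19 caenopore genes 5 were lower and 4 higher. Without that library 9036 of 14357 genes tested met this threshold. Then 3 p38 genes and 3 transcription factors were lower and none higher. Of the DBL-1 genes 3 were lower and 2 higher, of the insulin/DAF-16 genes 4 and 1, and of the caenopore genes 6 and 8.

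With vitamin C in wrn-1(gk99), 1 of 19 caenopore genes rose, spp-13 (log2 fold change 1.03, limma adjusted p = 0.000877), and 1 fell, spp-4 (-0.93, 0.00626). At this threshold, an adjusted p under 0.01, 6.05% of all genes tested rose and 4.24% fell. Of the pathway genes, 1 of 9 DBL-1 genes rose, lon-2, a glypican that restrains DBL-1 signalling (0.42, limma adjusted p = 0.00110), and 1 of 7 insulin pathway genes fell, the kinase gene akt-2 (-0.43, 0.00488). The intestinal master regulator elt-2, 1 of 5 transcription factors, rose (0.57, limma adjusted p = 0.000312). It had 1168, 1119 and 1193 normalized counts in treated wrn-1(gk99), against 790, 794 and 763 in untreated wrn-1(gk99), with no overlap.

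The counts of these lists in wrn-1(gk99) were larger without the library labelled N2 vitC replicate 3, when 13.9% of all genes tested rose and 14.5% fell. Then 3 of 19 caenopore genes rose and 5 fell. Of the 4 abf genes, abf-2 rose (log2 fold change 0.77, limma adjusted p = 0.000260, or 0.0272 with all libraries) and 2 fell, and thn-2 rose (0.42, 0.00228, or 0.307 with all libraries). Of the p38 genes 2 of 6 fell, atf-7, a transcription factor at the end of the pathway (-0.37, limma adjusted p = 7.74e-06), and nsy-1, a kinase near its start (-0.49, 0.00136). With all libraries none of these 3 lists had a gene that passed with limma. The DBL-1 genes had 1 higher and 3 lower, the insulin pathway genes 2 higher and 1 lower, and the transcription factors 1 higher and 2 lower.

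With vitamin C in N2, 3 of 19 caenopore genes fell, spp-20 (log2 fold change -1.35, limma adjusted p = 2.52e-06), spp-16 (-0.74, 0.000585) and spp-19 (-1.08, 0.00642), beside 7.48% of all genes tested, and 0 rose, beside 5.26%. The spp-20 counts were 1576, 1608 and 1695 in treated N2, against 4152, 3981 and 4276 in untreated N2. The genes thn-2 (-1.23, limma adjusted p = 0.00530), akt-1 (-0.49, 0.000259), akt-2 (-0.73, 0.000132) and pqm-1, a zinc-finger transcription factor (-0.41, 0.00508), fell as well. With all libraries no abf, p38 or DBL-1 gene passed with limma.

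Without the library labelled N2 vitC replicate 3, 7 of 19 caenopore genes fell in treated N2 and 1 rose, beside 21.0% and 15.5% of all genes tested. The 3 that fell with all libraries did so here too, at -1.38 for spp-20 (limma adjusted p = 6.28e-10), -0.81 for spp-16 (9.27e-06) and -0.995 for spp-19 (0.00468), and the one that rose was spp-13 (0.76, 2.48e-07). The genes thn-2 (-0.82, limma adjusted p = 1.30e-05), akt-1 (-0.43, 1.99e-06), akt-2 (-0.71, 5.44e-06) and pqm-1 (-0.34, 0.00117) also fell. Those that fell only in this fit included abf-2 (-0.77, limma adjusted p = 0.000576) and abf-4 (-1.53, 0.00921), 2 of 4 abf genes. They also included 1 of 6 p38 genes, sek-1 (-0.29, 0.00600), and 3 of 9 DBL-1 genes, the Smad genes sma-4 (-0.22, 0.00537) and sma-2 (-0.28, 0.00832) and lon-2 (-0.22, 0.00930).

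For elt-2 the response in N2 was -0.30 (limma adjusted p = 0.0129) with all libraries, which did not pass, and -0.39 (3.30e-05) without the library labelled N2 vitC replicate 3, which did. Its counts were 966, 1001 and 1164 in treated N2, against 1267, 1260 and 1328 in untreated N2, with no overlap. The interaction for elt-2 was 0.87 (limma adjusted p = 0.000120), or 0.95 (6.34e-08) without that library, so that its response differed between the strains in both fits.

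Summed tissue markers moved with some of these results. The intestine sum was lower with vitamin C in wrn-1(gk99). At an adjusted p under 0.01, 4 of 7 markers fell there (the largest change was ifb-2 at -1.07), beside 4.24% of all genes tested. The 1 that rose was elt-2, beside 6.05%. With the library labelled N2 vitC replicate 3 left out, 5 fell and 1 rose, beside 14.5% and 13.9%. The intestine sum was higher in wrn-1(gk99) than in N2 without vitamin C. There 3 of 7 were called higher, asp-1, ifb-2 and pho-1, beside 4.24% of all genes tested, while elt-2 was lower by less than 2-fold (log2 fold change -0.71, limma adjusted p = 1.21e-05). In treated N2 the intestine sum of replicates 1 and 2 lay below untreated N2 and that of replicate 3 above it. At an adjusted p under 0.01 without replicate 3, 5 of 7 intestine markers fell there and 1 rose, beside 21.0% and 15.5% of all genes tested. With replicate 3, 0 fell and 1 rose, beside 7.48% and 5.26%.

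The pharynx sum, over 5 markers, was 6143 to 7958 in treated wrn-1(gk99), 11765 to 12594 in untreated wrn-1(gk99), 3427 and 3494 in replicates 1 and 2 of treated N2, 6249 in the third, and 4535 to 4771 in untreated N2. The germline sum, over 5 markers, was 12977 to 14234 in treated wrn-1(gk99), 14795 to 15212 in untreated wrn-1(gk99), 7828 and 8086 in replicates 1 and 2 of treated N2, 12962 in the third, and 9801 to 10215 in untreated N2. Both sums were thus highest in untreated wrn-1(gk99) and lowest in replicates 1 and 2 of treated N2. The epidermis sum, over 6 markers, was 59726 to 66064 in treated wrn-1(gk99), 70506 to 72008 in untreated wrn-1(gk99), 68004 and 70951 in replicates 1 and 2 of treated N2, 62274 in the third, and 75324 to 79996 in untreated N2. The gene sqt-3 made up most of it, at 40877, 40654 and 40143 in untreated wrn-1(gk99) and 63719, 65079 and 67316 in untreated N2. Between the untreated strains, with all libraries, 3 of the 6 markers were higher in wrn-1(gk99) and 1 lower at an adjusted p under 0.01. That threshold was met by 43.4% of all genes tested, and the median log2 fold change of the 6 was 0.53. The neuron sum, over 5 markers, was 6295 to 6996 in treated and 5920 to 6533 in untreated wrn-1(gk99). It was 8850 and 9102 in replicates 1 and 2 of treated N2, 6524 in the third, and 7970 to 8689 in untreated N2. The genes lys-1, lys-2, lys-7, ilys-5 and lys-4 were higher in untreated wrn-1(gk99) than in untreated N2, as the intestine, pharynx and germline sums were. The genes lys-8, lys-3 and ilys-4 were lower there, as the epidermis and neuron sums were. In replicates 1 and 2 of treated N2 the intestine, pharynx, germline and epidermis sums lay below untreated N2 and the neuron sum above it. The counts of lys-1, lys-2, lys-3, lys-4, lys-7, lys-8, ilys-4 and ilys-5 also lay below untreated N2. Most single epidermis markers did not follow their sum in treated N2. Without replicate 3, 3 of the 6 rose at an adjusted p under 0.01 and 2 fell, beside 15.5% and 21.0% of all genes tested. Their median log2 fold change was 0.39. With all libraries 3 rose and 0 fell. The part of the tissue markers in these results was not tested.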

How the data were processed

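RNA-seq of whole worms covered 12 libraries in 4 groups of 3 biological replicates, grouped by their labels. The authors mapped 50-base reads to ce10 (TopHat), counted reads on genes (HTSeq) and scaled the counts with the size factors of DESeq. The deposited signal is this normalized count (versions not given in the sources used here, 0 columns unmatched). In every library 100% of nonzero values were whole multiples of 1 read (tolerance 0.01), so reads were recovered for the count tools and for depth. The limit given for genes at 0 reads covers counting error only.

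Tests used limma 3.58.1 (R 4.3.3, trended eBayes) on log2(normalized count + 1), which understates changes of low genes, over genes with a mean of at least 10 (14352, or 14357 without the library labelled N2 vitC replicate 3), with Benjamini-Hochberg adjustment over all of them. Calls needed an adjusted p under 0.01, a ratio of means of at least 2 or at most 0.5 (for the interaction, a log2 difference of at least 1) and a mean above 145. Alternatives used edgeR 4.0.16 and DESeq2 1.42.0 on recovered reads, other pseudocounts (0.1, 10), minimum means, scalings and a replicate block, and left out each library in turn. On simulated data each tool recovered 200 of 200 genes changed 3-fold by vitamin C in wrn-1(gk99), with 0 false calls over 14311 genes. The simulation gave every gene the same small spread, changed only well-expressed genes and had no library apart from its group. It therefore checks that the tools ran as meant and does not measure power or error in these data.

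The members, gene lists and tests were chosen with earlier results of these data known. All lys and ilys genes were named, with up to 4 genes per list and comparison by the smallest adjusted p, and the genes most like lys-8 (5), ilys-5 (3) and lys-3 (3) among those with a mean above 145. Genes likened to the other lysozymes and the RT-PCR measurements are not used here. Chromosomes, exons and neighbours come from WBcel235, which is not the authors' build, so no coordinates are given.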

Additional observations from a re-analysis of the deposited data

Results flagged for a closer look

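The response to vitamin C differed between wrn-1(gk99) and N2, by limma's interaction term with Benjamini-Hochberg adjustment, in 2 lysozyme genes with all libraries. The difference was 1.35 on the log2 scale for lys-3 (adjusted p = 4.98e-06) and 0.94 for ilys-4 (adjusted p = 0.000196), and in each gene all 3 treated libraries were above untreated ones in wrn-1(gk99) and below them in N2. Without the library labelled N2 vitC replicate 3 it was 1.39 for lys-3 (limma adjusted p = 1.15e-08), 0.95 for ilys-4 (7.13e-06), 0.47 for lys-2 (7.41e-05) and -0.62 for ilys-5 (0.000421). The interaction contains the untreated strain contrast that selected the family, so its p-values are not independent of that contrast.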

How the results depend on the processing

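Of 1305 values recomputed under the alternatives, 1190 stayed the same, 18 no longer passed, 63 newly passed, 8 moved beyond the spread and 26 turned sign. For tested values, staying the same meant keeping direction and side of the threshold. The 1190 also held values with no test, which stayed within the spread of replicates. These were 231 for the untreated strains, and for lys-8 24 between treated strains and 23 for treated wrn-1(gk99) against untreated N2. The fall of ilys-5 and rise of lys-3 in wrn-1(gk99), the fall of lys-3 in N2 and the lys-3 and ilys-4 interactions kept direction and side of the threshold under every alternative run. For ilys-4, 4 alternatives in wrn-1(gk99) and 3 in N2 raised the adjusted p above 0.01 (highest 0.0241 and 0.0220 over limma, edgeR and DESeq2), as 10 of 24 did for lys-1 in treated wrn-1(gk99) against untreated N2 (highest 0.0283).

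Leaving out single libraries gave 1 called lysozyme for vitamin C in wrn-1(gk99), 0 to 1 in N2, 0 to 3 for strain under vitamin C, 1 to 2 for treated wrn-1(gk99) against untreated N2, 4 to 6 for the untreated strains and 1 to 2 for the interaction, where the 2 came without wrn-1(gk99) vitC replicate 1. With the library labelled N2 vitC replicate 3 left out, the counts were 1 in N2, 3 for strain under vitamin C and 2 for treated wrn-1(gk99) against N2, beside 659, 978 and 599 of all genes tested. With edgeR and that library left out (chosen after seeing the data) they were 1, 3 and 2. DESeq2 gave 1 for strain under vitamin C, 2 for treated wrn-1(gk99) against N2 and 2 for the interaction, beside 156, 568 and 1037 of all genes tested. Equal totals or a fit of only the groups compared gave 2 for treated wrn-1(gk99) against N2. Apart from the left-out libraries, the cause was not tested.

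Log2 values that turned sign were small or rested on the library labelled N2 vitC replicate 3. With single libraries left out, the response in N2 ran from -0.13 to 0.37 for lys-1, -0.46 to 0.30 for lys-2, -0.067 to 0.90 for lys-6, -0.51 to 0.26 for lys-7 and -0.33 to 0.33 for ilys-2, that of lys-2 in wrn-1(gk99) from -0.020 to 0.049, the difference of ilys-4 between treated strains from -0.059 to 0.070 and the interaction of lys-2 from -0.29 to 0.47. With edgeR and that library left out, the response in N2 was -0.091 for lys-1, -0.42 for lys-2, -0.018 for lys-6 and -0.37 for ilys-2, that of lys-2 in wrn-1(gk99) was -0.000785, and the interaction was 0.41 for lys-2 and -0.012 for lys-8. For lys-7 in N2 it was 0.098 with equal totals, 0.0081 with equal upper quartiles, 0.20 with edgeR and 0.19 with DESeq2, for ilys-2 in N2 -0.000125 with a pseudocount of 0.1, and for ilys-4 between treated strains -0.012 with equal upper quartiles.

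Same-numbered libraries did not deviate together (correlations -0.081 to 0.165), so the numbers were not taken as pairs. A replicate block gave the same counts of called lysozymes, 1, 0, 0, 1, 5 and 1 in the order above, and 248 genes against 258 for vitamin C in wrn-1(gk99). Scaling to equal totals moved the median log2 difference of all genes between the untreated strains to 0.17 from 0.01, and to 0.19 from 0.01 for treated wrn-1(gk99) against N2. Low depth limits lys-6, ilys-2 and the 3 genes below the test level.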
